A study of Homo sapiens with 4 samples.

Results

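RAB proteins are the largest branch of the RAS-like small GTPases. A RAB switches between a GTP-bound form, which sits on a membrane and recruits tethers, motors and other effectors, and a GDP-bound form, which a dissociation inhibitor carries through the cytosol, so each RAB marks 1 or a few compartments of the secretory or endocytic routes. The alternative 3′ ends of an mRNA are set by cleavage and polyadenylation, usually a short way downstream of the hexamer AAUAAA or AUUAAA, and tandem sites in 1 terminal exon yield mRNAs with the same coding sequence and 3′ UTRs of different length. The genes described here were the protein-coding genes whose symbol is RAB followed directly by a number, from RAB1A to RAB44. GTPase-activating proteins, interactors and effectors, whose symbols add GAP, IP or FIP, were left out. There were 64 RAB genes by this rule among 18834 protein-coding genes with an annotated 3′ UTR. Of these 64, 45 had a peak in at least 1 of 2 lists. The same share over all protein-coding genes was not counted, so this is not read as a trait of RAB genes.

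The lists mapped RNA contacts of HNRNPC and of PABPC4 in MDA-MB-231, an established human breast cancer cell line, with 2 samples per protein. Live cells received 400 mJ/cm2 of ultraviolet light at 254 nm, and neither protein's samples had a further treatment in the labels. HNRNPC, a mostly nuclear protein that binds uridine tracts, was pulled down for irCLIP (Santa Cruz antibody), although the list itself carries the name of another variant of cross-linking and immunoprecipitation, HITS-CLIP. PABPC4, a poly(A)-binding protein, was pulled down for PAPERCLIP (Proteintech antibody), a variant meant to map mRNA 3′ ends. For its libraries the paper left out the kit's poly(A) tailing step and used a custom primer for reverse transcription. Whether each PABPC4 peak marks a 3′ end was not tested. Samples of a protein were pooled before peaks were called, so replicate error could not be computed for any value, and all counts and shares are descriptions of 1 list per protein. The HNRNPC list held 9107 positions and the PABPC4 list 63507, of which 19 and 230 were listed under a RAB gene. Of these positions, 13 were also listed under another gene ID. Peak height counts the unique tags of both samples at the summit, without scaling to depth, and a gene's heights depend on how much of its mRNA the cells held, which these lists do not give. A peak list also holds no level of a marker gene, so the identity of the line was not checked.

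A PABPC4 peak in a 3′ UTR was taken as a supported 3′ end where AAUAAA or AUUAAA lay wholly in its last 40 nt, or where an annotated transcript end (GENCODE 44) lay within 25 nt of the peak end. Supported ends within 50 nt of each other were merged, and a gene with at least 2 of them is called tandem. Of the 64 RAB genes, 12 were tandem. The windows below are the 30 nt that finish at the 3′ end of the peak, written 5′ to 3′ as RNA with hg38 coordinates, and the capitals mark the signal nearest the peak end. They are shown for most tandem genes, so that the signals of first and last ends can be set side by side, with the single ends of RAB32 and RAB34, among the tallest peaks of the family, for comparison.
RAB1A first end (chr2:65087876-65087905, minus strand): uAAUAAAuauuguacuuauuggaaguaaua
RAB1A last end (chr2:65086850-65086879, minus strand): cAAUAAAaaucauaguuuacuuuguauuau
RAB4A first end (chr1:229303969-229303998, plus strand): aaucgaAUUAAAuggacaacaccguuagau
RAB4A last end (chr1:229305472-229305501, plus strand): ccuuuggccAAUAAAaguugcuggagaacc
RAB7A first end (chr3:128814067-128814096, plus strand): aaccaAUUAAAauguauaaauuaguguaag
RAB7A last end (chr3:128814769-128814798, plus strand): augccAAUAAAauugaacaagaacaaugau
RAB8A first end (chr19:16133511-16133540, plus strand): cuuuugaAUUAAAaccaacauaucagcaau
RAB8A middle end (chr19:16133603-16133632, plus strand): aacaaacaaAUUAAAgcucaucuuaaaguc
RAB11A end 2 (chr15:65888049-65888078, plus strand): gccuuaguuuAAUAAAcugaauguuuggau
RAB11A end 3 (chr15:65889424-65889453, plus strand): cacauucuAAUAAAcaguuauagggggauu
RAB11A end 4 (chr15:65891225-65891254, plus strand): ggaggucgaugguaacAAUAAAgugauaca
RAB18 first end (chr10:27538487-27538516, plus strand): aggaauAAUAAAgagcaugauuccacagcu
RAB18 last end (chr10:27539799-27539828, plus strand): uucuugAAUAAAuauagccugcuuucccua
RAB21 first end (chr12:71786545-71786574, plus strand): guaaauuacauAUUAAAuauuuuaucugcu
RAB21 middle end (chr12:71787472-71787501, plus strand): uaguauguAAUAAAgcuauuagcaugagca
RAB21 last end (chr12:71790570-71790599, plus strand): cuaggaaaagAAUAAAaaacauauauuguc
RAB27A first end (chr15:55204380-55204409, minus strand): uacuguaguucAAUAAAagaaaaaugaagu
RAB27A last end (chr15:55202968-55202997, minus strand): gcuguAAUAAAaaaguggucuagucuguca
RAB30 first end (chr11:82979272-82979301, minus strand): uucauucaauaaaguuAUUAAAuauauggc
RAB30 last end (chr11:82978107-82978136, minus strand): ugagacuucgcuaaagaAUUAAAagcugug
RAB31 first end (chr18:9860475-9860504, plus strand): ucagauucccugucugcucaAUUAAAgaug
RAB31 last end (chr18:9862521-9862550, plus strand): ugauucauacuAAUAAAuauuuucaguuuu
RAB32 single end (chr6:146554923-146554952, plus strand): gugcuggggugguAAUAAAauguuaccucc
RAB34 single end (chr17:28714285-28714314, minus strand): cuuaugcAUUAAAauuucuuuguuacgagc
Both ends of RAB1A carried AAUAAA with its first base 29 nt from the peak end, and both ends of RAB18 carried it at 24 nt. In RAB4A, RAB7A, RAB21 and RAB31 the first end carried AUUAAA and the last end AAUAAA. Both ends of RAB30 carried AUUAAA, and its first end was the only 1 of 54 supported RAB ends whose last 40 nt held both hexamers.

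PABPC4 peaks lay in the 3′ UTR of 40 of the 64 RAB genes (62.5%), against 50.5% of all 18834 protein-coding genes. The longest annotated 3′ UTR of the RAB genes had a median of 2106 nt (quartiles 941 and 3280 nt), and the median over all protein-coding genes was 1246 nt. Of the 230 PABPC4 positions, 112 lay in 3′ UTRs, 116 in introns and 2 outside the annotated gene. The 3′ UTR share was 48.7% (95% Wilson interval 42.3 to 55.1%), compared with 31% over all protein-coding genes. Intervals here and below cover counting error only, and positions in 1 gene are not independent.

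**Figure D1:**
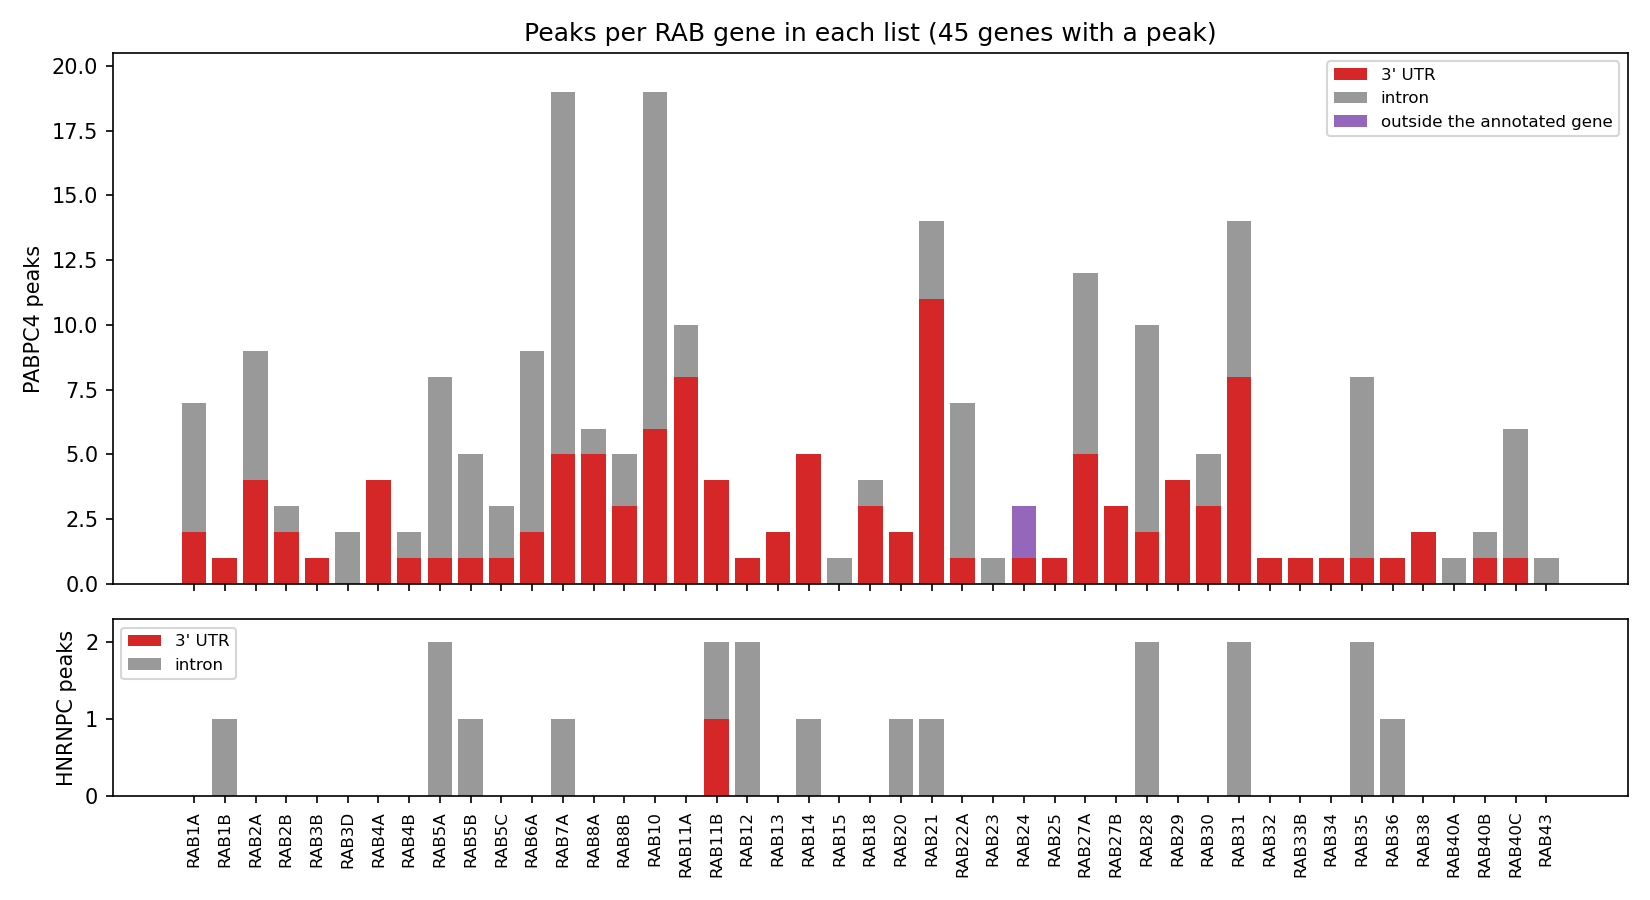
Number of PABPC4 peaks (upper panel) and HNRNPC peaks (lower panel) listed under each of the 45 RAB genes with a peak, split by position in the gene. RAB21, with 11 peaks, had the most PABPC4 peaks in its 3′ UTR, RAB7A had the most intron peaks (14), and no gene had more than 2 HNRNPC peaks.

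Of the 112 peaks in 3′ UTRs, 54 were supported (48.2%, interval 39.2 to 57.4%), against 57.7% of the 18693 such peaks over all genes. The hexamer was present in 37.5% of RAB peaks and 47.2% of all peaks, and an annotated end was near 27.7% and 42.9% of them. The 54 ends comprised 19 with both a signal and an annotated end, 23 with the signal alone and 12 with the annotated end alone. They lay in 34 genes. In 22 genes there was 1 supported end, in 6 genes there were exactly 2, and in another 6 there were 3 or more. Where a signal was found, its first base lay a median of 21 nt before the peak end (quartiles 25 and 19 nt), the same median as over all genes. UGUA, the core of the motif bound by the cleavage factor CFIm, occurred in the 100 nt upstream of 64.8% of RAB ends (interval 51.5 to 76.2%) and of 55.9% of all ends. GUGU or UUUU, as found in the downstream elements read by CstF, occurred in the 40 nt downstream of 63% and 61.4%.

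Tandem ends were found in 12 of the 34 RAB genes with a supported end (35.3%), and the background over all genes with a supported end was 24.1% (1986 of 8233). This difference has no replicate error and was not tested. With an annotated end required at each end, the shares were 10.7% of RAB genes and 12.3% of all genes, and the tandem RAB genes were RAB1A, RAB11A and RAB18. With a signal required they were 46.2% and 19.7%. All 12 RAB genes had their ends in 1 unbroken 3′ UTR segment, as had 88.7% of all tandem genes. The distance from first to last end had a median of 1458 nt (quartiles 1130 and 2081 nt) and ranged from 690 nt in RAB8A to 4139 nt in RAB11A. Over all tandem genes the median was 1212 nt, and the quartiles of 387 and 2898 nt lay outside those of the RAB genes on both sides. Of the 20 gaps between neighbouring RAB ends, 12 were 1000 nt or longer and 2 were under 100 nt. These gap counts have no count over all genes beside them. The short gaps were the 92 nt between the first pair of ends in RAB8A and the 85 nt between the last pair in RAB10. The longest 3′ UTR of tandem RAB genes had a median of 2708 nt, and that of RAB genes with 1 end 1215 nt. Over all genes the corresponding medians were 2511 and 1276 nt. Across the 34 RAB genes, the number of ends had a Spearman correlation of 0.46 with 3′ UTR length and of 0.37 with summed end tags. These are descriptions across genes, which share 1 list, and the parts of length and tag number were not separated.

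**Figure D2:**
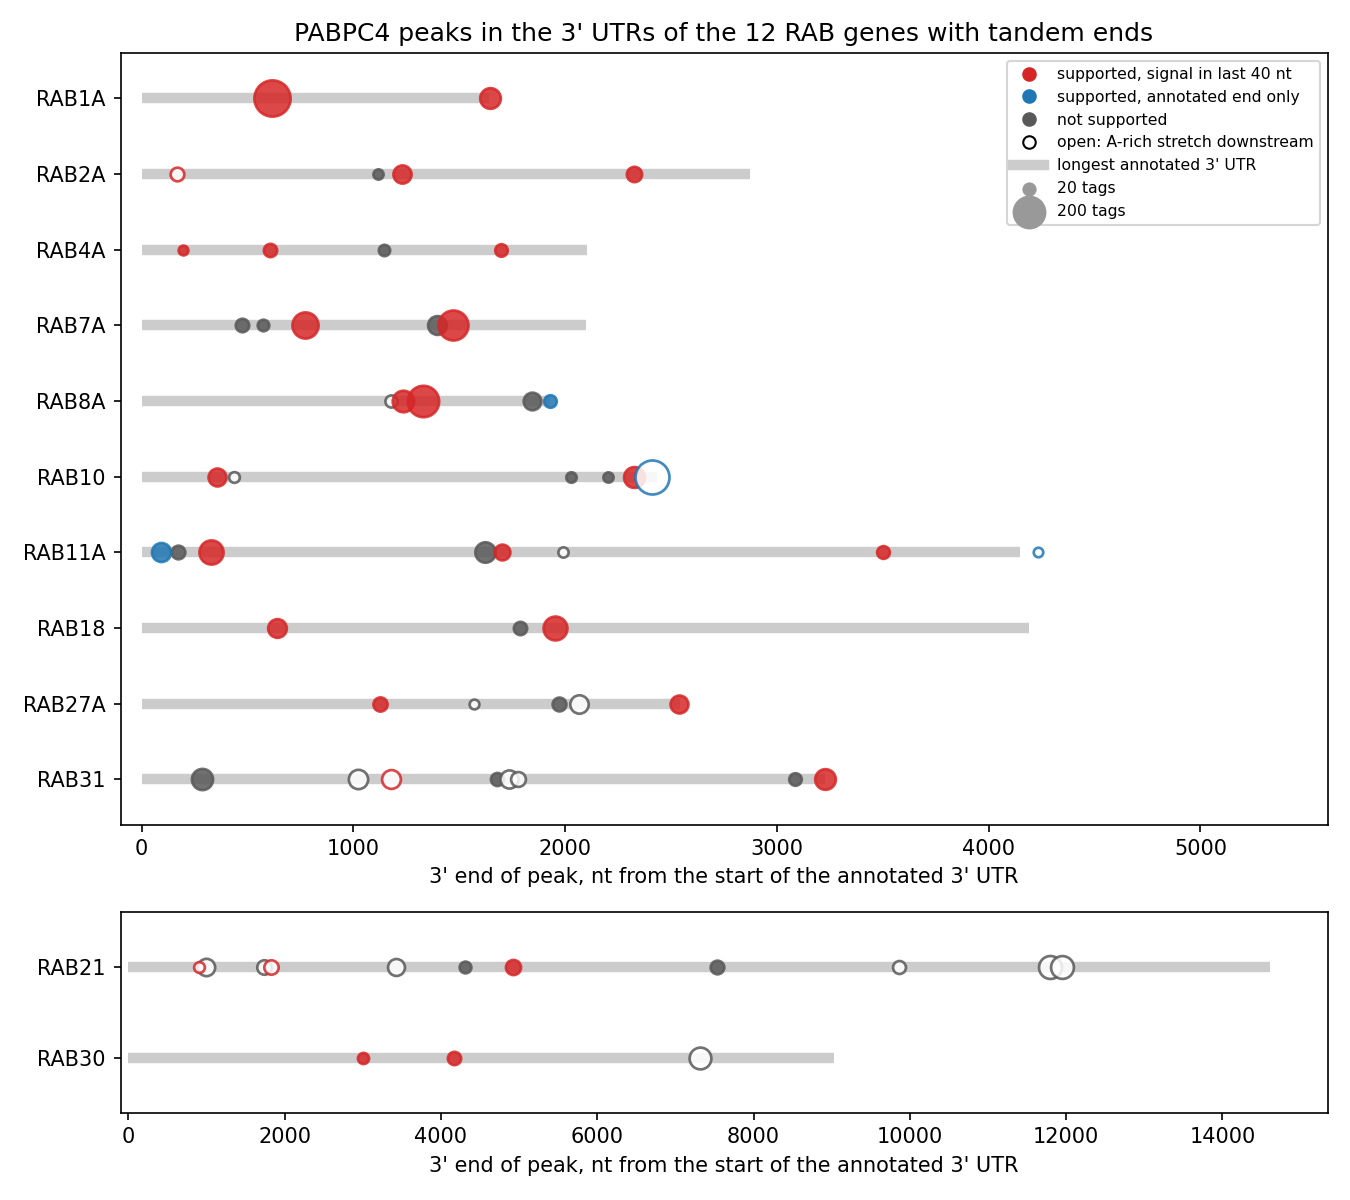
Position of every PABPC4 peak in the 3′ UTRs of the 12 tandem RAB genes, in nt from the start of the annotated 3′ UTR, with point area rising with tags; RAB21 and RAB30 have an axis of their own. Coloured points are supported ends, grey points are not supported, and open points precede an A-rich stretch. RAB11A has 5 supported ends spread over 4139 nt, and the supported ends of RAB21 finish 9687 nt before its annotated end.

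Among genes of the endoplasmic reticulum and Golgi, 4 of the 6 with a supported end were tandem (66.7%). The share was 35.3% over all RAB genes with a supported end and 24.1% over all protein-coding genes with one. The role groups are small, and differences between them were not tested. RAB1A, which acts in traffic from the endoplasmic reticulum to the Golgi, had 264 tags at its first end, 617 nt into the 3′ UTR, and 78 tags at its last end, 1026 nt further on. The last end thus took 22.8% of the supported end tags (interval 18.7 to 27.5%). With ends merged within 50 nt, RAB1A was the only tandem RAB gene whose first end was the tallest. Its paralogue RAB1B had 1 end, of 171 tags.

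RAB2A, a Golgi RAB with roles in retrograde and lysosomal traffic, had 3 ends of 28, 58 and 38 tags over 2156 nt, all with AAUAAA and none within 25 nt of an annotated end. The first of them, 41 nt from an annotated end, preceded an A-rich stretch. The paralogue RAB2B had 2 peaks in its 3′ UTR, of 63 and 9 tags, and neither was supported. RAB18, which is found on the endoplasmic reticulum and lipid droplets, had 62 tags at its first end and 108 at its last, 1312 nt apart, each within 25 nt of an annotated end. The longest annotated 3′ UTR, of 4188 nt, ran on past both. RAB30, a Golgi RAB with a 9032 nt 3′ UTR, had low ends of 15 and 26 tags. A taller peak of 88 tags further downstream was not supported and preceded an A-rich stretch. RAB6A, another Golgi RAB, had 1 end of 8 tags, which preceded an A-rich stretch. A taller RAB6A peak of 36 tags, 297 nt upstream, was not supported and also preceded one.

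Genes of secretion, exocytosis and recycling held 5 of the 12 tandem genes, out of 13 with a supported end (38.5%, beside 24.1% over all genes). RAB11A, the RAB of the recycling endosome, had the most ends. Its heights were 65, 111, 41, 23 and 8 tags from 5′ to 3′, so the second end, 326 nt into the 3′ UTR, was the tallest and took 44.8% of the tags (interval 38.7 to 51%). The last, 4232 nt in, took 3.23% (1.64 to 6.24%) and preceded an A-rich stretch. The first and last ends of RAB11A were at annotated ends and had no signal, while the 3 between them had AAUAAA and were 169, 818 and 735 nt from the nearest annotated end. RAB11B had 1 supported end, of 44 tags, at its annotated end, and 3 unsupported peaks of 28, 23 and 49 tags in the 211 nt upstream of it.

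RAB8A, which works in transport from the Golgi to the cell surface and the cilium, had 86, 195 and 22 tags at its 3 ends. The first pair lay 92 nt apart, each with AUUAAA, and the last was at the annotated end and took 7.26% of the tags (4.84 to 10.7%). That last position was also listed under another gene ID. RAB8B had 1 end, of 129 tags, 4158 nt into its 3′ UTR. RAB10, which acts in exocytosis including that of glucose transporter vesicles, had 56, 80 and 231 tags at its 3 ends. The tallest of these was 22 nt from the only annotated end, had no signal and preceded an A-rich stretch. The middle end, 85 nt upstream of it, had AUUAAA, and the first lay 355 nt into the 3′ UTR with AAUAAA.

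RAB4A, a RAB of fast recycling from early endosomes, had lower ends of 9, 26 and 22 tags over 1503 nt. Each had a hexamer and none was near an annotated end. The positions of 26 and 22 tags were also listed under another gene ID, and without such positions RAB4A had 1 end. RAB4B had 1 end, of 49 tags. RAB27A, which drives docking of secretory lysosomes and release of exosomes, had 31 tags at its first end and 56 at its last, 1412 nt apart and both with AAUAAA. RAB27B had 1 end of 6 tags, at the end of a 6103 nt 3′ UTR and before an A-rich stretch. A taller RAB27B peak of 21 tags, 272 nt into the 3′ UTR, was not supported and also preceded one. Of the RAB3 genes of regulated exocytosis, RAB3B had 1 unsupported 3′ UTR peak of 53 tags before an A-rich stretch, RAB3D had intron peaks only, and RAB3A and RAB3C had none.

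Among early endosome genes, 2 of the 6 with a supported end were tandem (33.3%, beside 24.1% over all genes). The 3 RAB5 genes, whose products drive fusion of early endosomes, each had 1 end. RAB5A had 211 tags, RAB5B 216 tags and RAB5C 327 tags, the tallest 3′ UTR peak of the family. All were within 25 nt of an annotated end, and the RAB5A end alone had a hexamer. The RAB5C position was also listed under another gene ID. RAB5B had this end 2604 nt into a 3′ UTR annotated to 4471 nt.

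RAB21, which acts in endocytosis of integrins, had the longest 3′ UTR of the family, 14613 nt, and 11 peaks in it. Its 3 supported ends had 13, 32 and 37 tags, and the first 2 preceded A-rich stretches. Of the 11 peaks, 8 preceded such a stretch, among them the tallest pair, of 99 and 98 tags, at 11792 and 11950 nt. No peak was at the annotated end. RAB31, which acts between the trans-Golgi network and endosomes, had 63 tags at its first end and 78 at its last, 2046 nt apart. The signal of the first end lay only 10 nt from the peak end, and the peak preceded an A-rich stretch. The last end was 1 nt from the annotated end. RAB31 also had 6 unsupported peaks of 22 to 83 tags. Its relative RAB22A had 1 peak of 58 tags in a 7804 nt 3′ UTR, unsupported and before an A-rich stretch.

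Late endosome, lysosome and lysosome-related genes had mostly 1 end each, and 1 of 7 was tandem (14.3%, beside 24.1% over all genes). This was RAB7A, which directs late endosome and lysosome fusion. It had 132 tags at its first end, with AUUAAA and 452 nt from the nearest annotated end, and 177 tags at its last, with AAUAAA exactly at an annotated end. The last end took 57.3% of the tags (51.7 to 62.7%). RAB32, an organizer of melanosomes and other lysosome-related organelles, had 1 end of 268 tags in a 348 nt 3′ UTR. RAB34, which acts in lysosome positioning and cilium formation, had 1 of 236 tags. With RAB5C, RAB1A (264 tags) and RAB10 (231 tags) these were the tallest 3′ UTR peaks among the 64 genes. RAB9A, RAB9B and RAB7B had no peak in either list. Among RAB genes placed in none of these role groups, 0 of the 2 with a supported end were tandem.

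**Figure D3:**
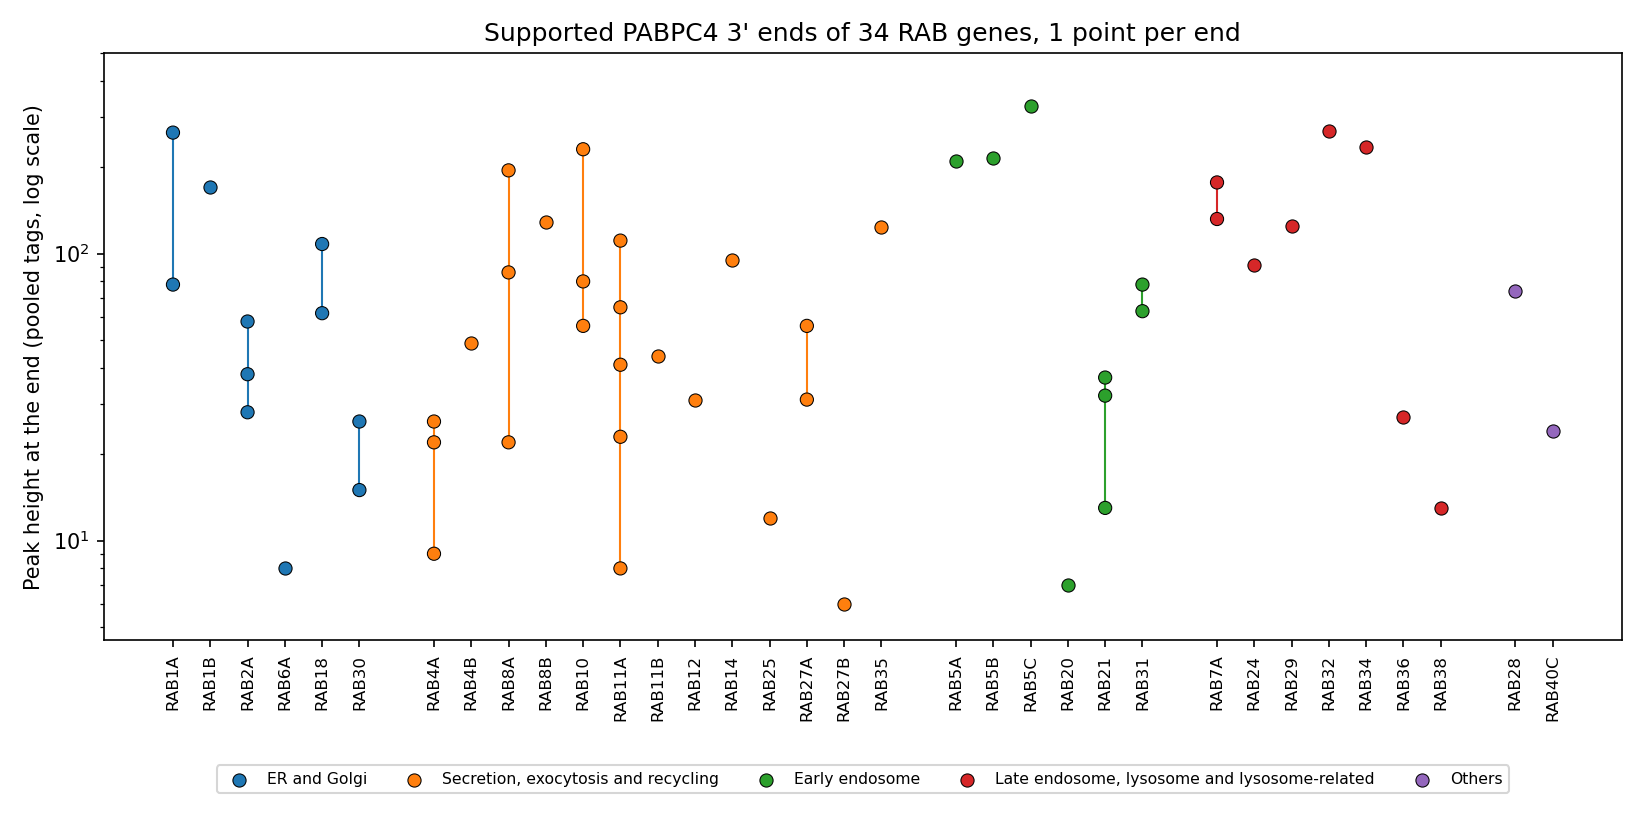
Height in pooled tags (log scale) of each of the 54 supported 3′ ends in 34 RAB genes, grouped by the route in which the protein acts; a line joins the ends of 1 gene. Heights run from 6 tags in RAB27B to 327 in RAB5C, and tall ends occurred both in genes with 1 end and in tandem genes.

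The share of tags at first and last ends differed between genes. How closely tags follow the use of an end was not tested. The last end was the tallest in 7 of the 12 tandem RAB genes (58.3%, interval 32 to 80.7%), against 46.1% of all tandem genes. The first end was the tallest in 1 of 12 (8.33%, 1.49 to 35.4%), against 45.9%. Of the 12, 6 had at least 3 ends (50%, 25.4 to 74.6%), against 22.1%. This count depends on the merging distance. RAB8A and RAB10 reached 3 ends only through pairs 92 and 85 nt apart. With ends within 200 nt merged, both genes had fewer than 3, and the others kept at least 3. RAB8A then had its end of 195 tags as both first and tallest, so the count of tallest first ends also depends on that distance. Neither matching share over all tandem genes was computed with that merging. Genes with 3 or more ends also have middle ends that can be the tallest, so their number affects the shares of tallest first and last ends. The last end took a median of 50.2% of a gene's tags, with 3.23% in RAB11A as the lowest and 64.4% in RAB27A as the highest, and the median over all tandem genes was 44.6%. In RAB7A, RAB10, RAB18 and RAB27A the lower bound of the last end's share was above 50%. In RAB1A, RAB2A, RAB8A and RAB11A the upper bound was below it. For RAB4A, RAB21, RAB30 and RAB31 the interval included 50%. In genes with 3 or more ends, 50% is not an equal share. These bounds treat pooled tags as independent and hold no spread between samples, so they do not show that a gene's share differs from 50%. Tags of unsupported peaks were left out of the shares.

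**Figure D4:**
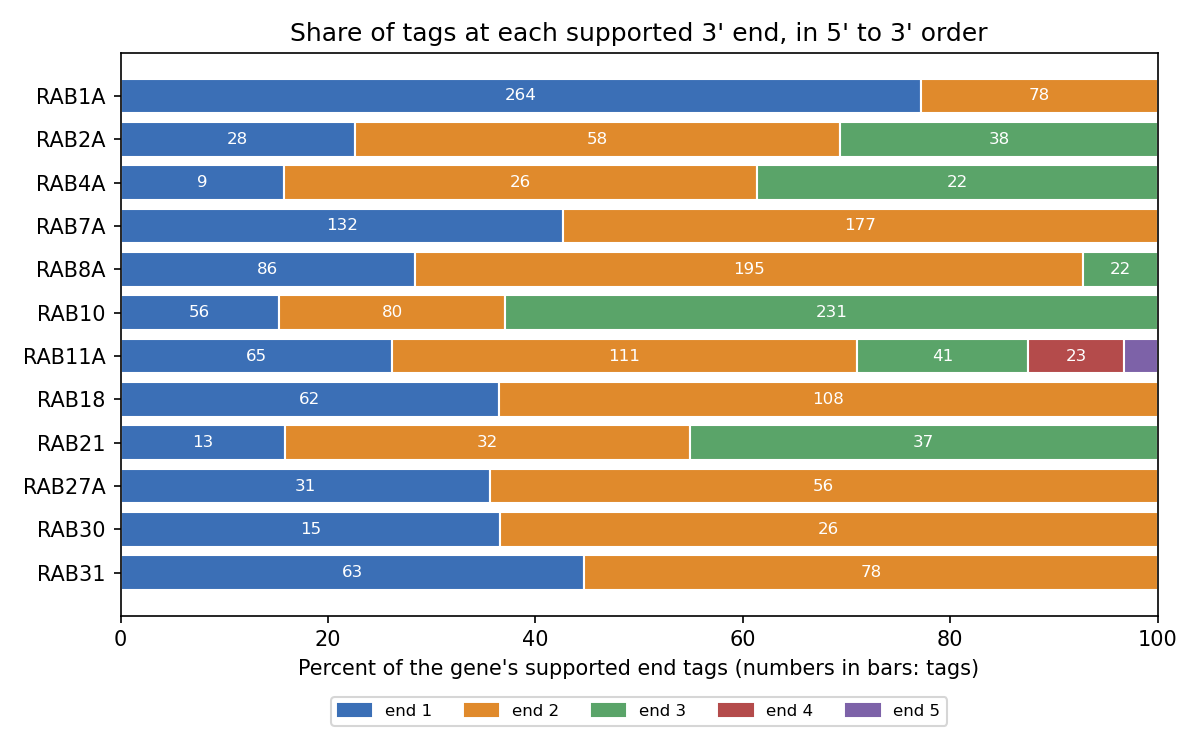
Percent of each tandem RAB gene's supported end tags found at each end, in order from 5′ (left) to 3′ (right), with tags printed in the bars. The first end held most tags in RAB1A (264 of 342), the second in RAB8A (195 of 303), and the last in RAB10 (231 of 367).

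The signals were set side by side by place, without a test. AUUAAA was the signal nearest the peak end at 6 of 12 first ends in RAB genes (50%, 25.4 to 74.6%) and at 1 of 12 last ends (8.33%, 1.49 to 35.4%). First and last ends come from the same 12 genes, so these separate intervals do not measure their difference. Over all tandem genes the shares were 23.7% and 18.4%. AAUAAA was at 5 of 12 first ends and 8 of 12 last ends, or 41.7% and 66.7%, with 51.9% and 66.1% over all genes. An annotated end was near 4 of 12 first ends (33.3%, against 47.7% over all tandem genes) and 8 of 12 last ends (66.7%, against 80.6%). It was near 0 of 8 middle ends, with an upper bound of 32.4%, against 35.9%. In all, 23 of the 54 RAB ends were more than 25 nt from any annotated end. The median distance was 12.5 nt (quartiles 3 and 702 nt), against 5 nt over all genes (quartiles 1 and 32 nt). RAB10, RAB21 and RAB31 had 1 annotated end each and at least 2 supported ones.

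Of the 58 RAB 3′ UTR peaks without support, 21 lay within 200 nt upstream of a supported end of the same gene, 18 lay further upstream and 19 had none downstream. An A-rich stretch was a run of 6 A, or any 10 nt with at least 7 A, within 50 nt past the peak. A primer for poly(A) could anneal there inside an mRNA. Such a stretch followed 4, 10 and 11 of these unsupported sets, in that order. It followed 43.1% of unsupported and 20.4% of supported RAB peaks, and 47% and 20.9% over all genes. How far such priming, or binding of PABPC4 at such stretches, contributed was not tested. The split of unsupported peaks by place has no count over all genes beside it. Of the 116 intron peaks, 73.3% preceded an A-rich stretch (64.6 to 80.5%), as did 70.8% of intron peaks over all genes. A hexamer was in 12 of the 116 (10.3%, 6.02 to 17.2%), against 6.22% over all genes. Of these, 2 had no A-rich stretch (1.72% of the 116, against 2.34%). They were a peak of 165 tags in RAB3D and one of 71 tags in RAB27A, both at positions also listed under another gene ID. The genes with the highest numbers of intron peaks were RAB7A (14) and RAB10 (13). The 6 genes with 3′ UTR peaks and no supported end were RAB2B, RAB3B, RAB13, RAB22A, RAB33B and RAB40B. A further 5 had PABPC4 peaks in introns only, namely RAB3D, RAB15, RAB23, RAB40A and RAB43.

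HNRNPC peaks were few. Of the 64 RAB genes, 13 had one (20.3%), and the background was 20.1% of all protein-coding genes. All 13 also had PABPC4 peaks, but the same overlap over all genes was not counted. The PABPC4 list held 13189 gene IDs and the HNRNPC list 4098, so the overlap is not read as a trait of RAB genes. Introns held 18 of the 19 positions (94.7%, 75.4 to 99.1%), against 88% over all genes. The single 3′ UTR peak, in 1 of 64 genes (1.56%, background 1.92%), was in RAB11B at chr19:8404090-8404206 on the plus strand. It was 11 tags high with the authors' p-value of 0.00824, and it overlapped by 33 nt an unsupported PABPC4 peak of 28 tags. None of the 12 tandem genes had an HNRNPC peak in the 3′ UTR, and RAB7A, RAB21 and RAB31 had intron peaks.

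No RAB gene had more than 2 HNRNPC peaks. The 6 with 2 were RAB5A, RAB11B, RAB12, RAB28, RAB31 and RAB35. RAB12, which acts in transport of transferrin receptor to lysosomes, had the tallest, with 42 tags at chr18:8618038-8618159. RAB31 had 40 tags at chr18:9716951-9717052. All others were 5 to 18 tags high, and the median was 10 tags against 11 over all genes. UUUUU, a run of uridines of the kind HNRNPC binds, was in the peak or the 50 nt upstream for 9 of the 19 (47.4%, 27.3 to 68.3%), against 40% of all peaks. It lay inside the peak in 2, only upstream in 7, and in neither place in 10, and both peaks of RAB12 were among the last. GUGUCA was in the last 20 nt of 8 of the 19 peaks (42.1%, 23.1 to 63.7%) and of 23.7% of all peaks. Its part in the calling of these peaks was not tested.

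In the ARF, ARL and SAR family of small GTPases, which also act in membrane traffic, tandem ends were found in 7 of the 19 genes with a supported end (36.8%), beside the background of 24.1%. Among 32 genes that load, retrieve, activate, inactivate or bind RABs, 27 had a supported end and 8 of these were tandem (29.6%). They included GDI2, a dissociation inhibitor with 2 ends, and RAB3GAP2, RABEP1 and TBC1D15, with 3 ends each. HNRNPC peaks were listed under 16 of the 32, where the background was 20.1% of genes, with 12 under DENND1A, an exchange factor for RAB35. The differences between these groups and the RAB genes were not tested.

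No peak in either list was found for 19 RAB genes, which were RAB3A, RAB3C, RAB6B, RAB6C, RAB6D, RAB7B, RAB9A, RAB9B, RAB17, RAB19, RAB26, RAB33A, RAB37, RAB39A, RAB39B, RAB40AL, RAB41, RAB42 and RAB44. Fewer mRNAs and less binding per mRNA cannot be told apart for them, nor can tags too few for a peak to be called. The share of all protein-coding genes without a peak was not counted.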

How the data were processed

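CLIP tags were collected from MDA-MB-231 cells, 2 samples per protein. The authors collapsed HNRNPC reads by molecular identifier (UMI-tools), trimmed them (cutadapt), aligned them with BWA 0.7.17 to hg38, removed duplicates, pooled the samples and ran the CLIP Tool Kit peak caller. Processing of the PABPC4 reads was not described separately, and the same tools were given in the submitters' processing notes. The deposited signal was the peak height in pooled unique tags, not scaled to depth. Library depth is not given by a peak list, and its number of tags limits the precision of each share.

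From these lists, each position was counted once. Gene IDs were matched to RefSeq symbols for 4090 of 4098 IDs (HNRNPC) and 13155 of 13189 (PABPC4). Peaks were placed by their centre on GRCh38 with GENCODE 44. Python 3.11.15, pandas 2.3.3, SciPy 1.17.1, pyfaidx 0.9.0.4 and matplotlib 3.10.9 were used. No test between groups was made, because each protein had 1 list. The rules for ends and motifs were tested on simulated data. Members, role groups and lists were chosen with earlier results of these data known. Genes named were those with 3 or more supported ends, the 5 with the tallest 3′ UTR peak, those with an HNRNPC 3′ UTR peak, those with most HNRNPC peaks (6, since they tied), paralogue sets, and genes in neither list. Other tandem genes and further examples were named after their values were seen. Alternatives covered p-value, height, signal, annotated end, A-rich stretch, merging distance, window and overlap. Leaving out positions under more than 1 gene ID was chosen after seeing the data.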

Additional observations from a re-analysis of the deposited data

Results flagged for a closer look

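Beyond the measurements in annotated 3′ UTRs and introns, 2 PABPC4 peaks were listed under RAB24, a RAB linked to autophagy, but lay outside its annotated gene on chromosome 5 (minus strand, hg38). One, at chr5:177305269-177305315, had 62 tags and preceded an A-rich stretch. The other, at chr5:177307212-177307268, had 44 tags and AUUAAA near its end, and was also listed under MXD3. They stood out because no transcript of RAB24 in GENCODE 44 covers them. The peak inside RAB24 had 91 tags and lay 10 nt from an annotated end.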

How the results depend on the processing

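Of 61 alternative values, 49 kept counts and medians within 1.5 times, and shares of peaks within the interval, of those reported, and 12 did not. Requiring an annotated end left 3 tandem genes (from 12), 31 ends (from 54) and a median share of 22.8% at the last end (from 50.2%). With every 3′ UTR peak counted as an end there were 23 tandem genes, 109 ends and a share of 30.1%. Peaks at or above their list's median height gave 33 ends and 7 genes with an HNRNPC peak (from 13). A p-value of at most 0.001 left 0 genes with an HNRNPC 3′ UTR peak (from 1). With 12 hexamers, 47.3% of peaks had a signal (from 37.5%). An A-rich stretch was within 20 nt for 19.6% of peaks (from 32.1%), and UUUUU was inside 10.5% of HNRNPC peaks (from 47.4%). Each follows from a stricter or looser definition.

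The tandem shares of RAB genes and of all genes, 35.3% and 24.1% as reported, were 10.7% and 12.3% with an annotated end required, 46.2% and 19.7% with a signal required, 57.5% and 48.4% with every peak counted, and 34.5% and 17.2% without peaks before an A-rich stretch. Leaving out positions under more than 1 gene ID gave 11 tandem genes. No paired analysis was possible because peaks were called on pooled tags. For the same reason no sample could be left out.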
